A study of Mus musculus with 16 samples.

Results

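The genes described here are 37 listed chaperones, co-chaperones, disulfide isomerases and prolyl isomerases of the endoplasmic reticulum (ER), followed across mouse dendritic cells given a saturated fatty acid, a Toll-like receptor agonist or both. Members were taken by gene symbol from the array's annotation, and 34 of the 37 were measured among 22180 genes in all. Sdf2, Pdia4 and Erp29 share their probe sets with other symbols and were not analysed here. The measured members comprised 12 of the HSP70 and HSP90 system, 3 of the lectin cycle and 5 prolyl isomerases. The rest were 12 disulfide isomerases and thioredoxin-fold proteins, with Creld1 and Creld2 counted among them, and 2 chaperones with a narrow range of clients. The cells were dendritic cells grown for 10 days with GM-CSF (20 ng/ml) from the marrow of male C57/B6 mice and treated for 24 h. Mock cells received neither agent. The second group received PA alone (0.5 mM, bound to albumin, 6 molecules to 1), the third IMQ alone, and the last IMQ with PA, with 4 arrays in each. The labels abbreviate both agents, and PA was taken to mean palmitic acid, a saturated fatty acid, and IMQ imiquimod, a drug that stimulates the RNA sensor TLR7. The IMQ dose appears as 3 uM in the series text and 3 ug/ml in the protocol, and whether mock cells received albumin is not stated. The replicates are labelled biological without saying whether animals or cultures differed, so p-values rest on the spread among these arrays alone, and that may be technical.

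Proteins that enter the ER fold with the help of the HSP70 protein BiP (Hspa5) and the HSP90 protein GRP94 (Hsp90b1). J-domain proteins and nucleotide exchange factors set the ATP cycle of BiP. Glycoproteins pass through the calnexin and calreticulin cycle, disulfide isomerases form and rearrange their disulfide bonds, and prolyl isomerases turn their proline bonds. When unfolded protein builds up, the sensors IRE1, PERK and ATF6 start the unfolded protein response, and ATF6 and XBP1 bind ER stress elements in the promoters of many of these genes. In dendritic cells the same machinery folds Toll-like receptors, MHC molecules and secreted cytokines.

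With IMQ and PA together most of these genes stood above all 3 other groups. When PA was added to IMQ, 25 of the 34 members rose and 2 fell, and the median change was 0.57 on the log2 scale. Over all genes tested, 11.6% rose and 9.44% fell in that comparison, with a median of -0.02. Here a gene is said to rise or fall, or to be called, when its Benjamini-Hochberg adjusted p from limma over all genes tested was under 0.05. All changes are differences of log2 values, each followed by ± and its standard error, from 4 arrays in each group. PA added to IMQ, or IMQ added to PA, compares separate groups of arrays and not steps in time. PA alone raised 6 members and lowered 0, against 1.05% and 0.442% of all genes, with a median of 0.10. At an unadjusted limma p under 0.05, 15 members were higher with PA and 0 lower. The share of all genes at that looser threshold was not counted, so the 15 cannot be set against the shares above. IMQ alone raised 14 and lowered 9, against 17.0% and 17.9% of all genes, with a median of 0.11. With both agents against mock, 29 rose and 3 fell, where 18.4% of all genes rose and 18.1% fell, and the median was 0.56. When IMQ was added to PA, 27 rose and 3 fell, where 16.8% rose and 18.5% fell among all genes, and the median was 0.45. The comparisons share arrays (each with mock uses the same 4 mock arrays), so their counts are given side by side and not as independent results.

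The change with both agents was larger than the sum of the separate changes for most members. The interaction compares the effect of PA in cells given IMQ with its effect in cells that were not, and it was above 0 and called for 21 members and below 0 and called for 2. Among all genes it was higher for 6.58% and lower for 7.01%, and its median was 0.52 over the members and -0.01 over all genes. The mean was highest with IMQ and PA for 27 of the 34 members. Both agents against mock raised 14 members that did not rise with either alone. The shares of all genes with these 2 patterns were not counted, so both counts only describe the members. Averaged over the 34 members, the arrays lay -0.02 to 0.03 from the mock mean in the mock group, 0.11 to 0.18 above it with PA, 0.02 to 0.08 with IMQ and 0.66 to 0.69 with both. No array of the last group overlapped any other group on this average.

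**Figure D1:**
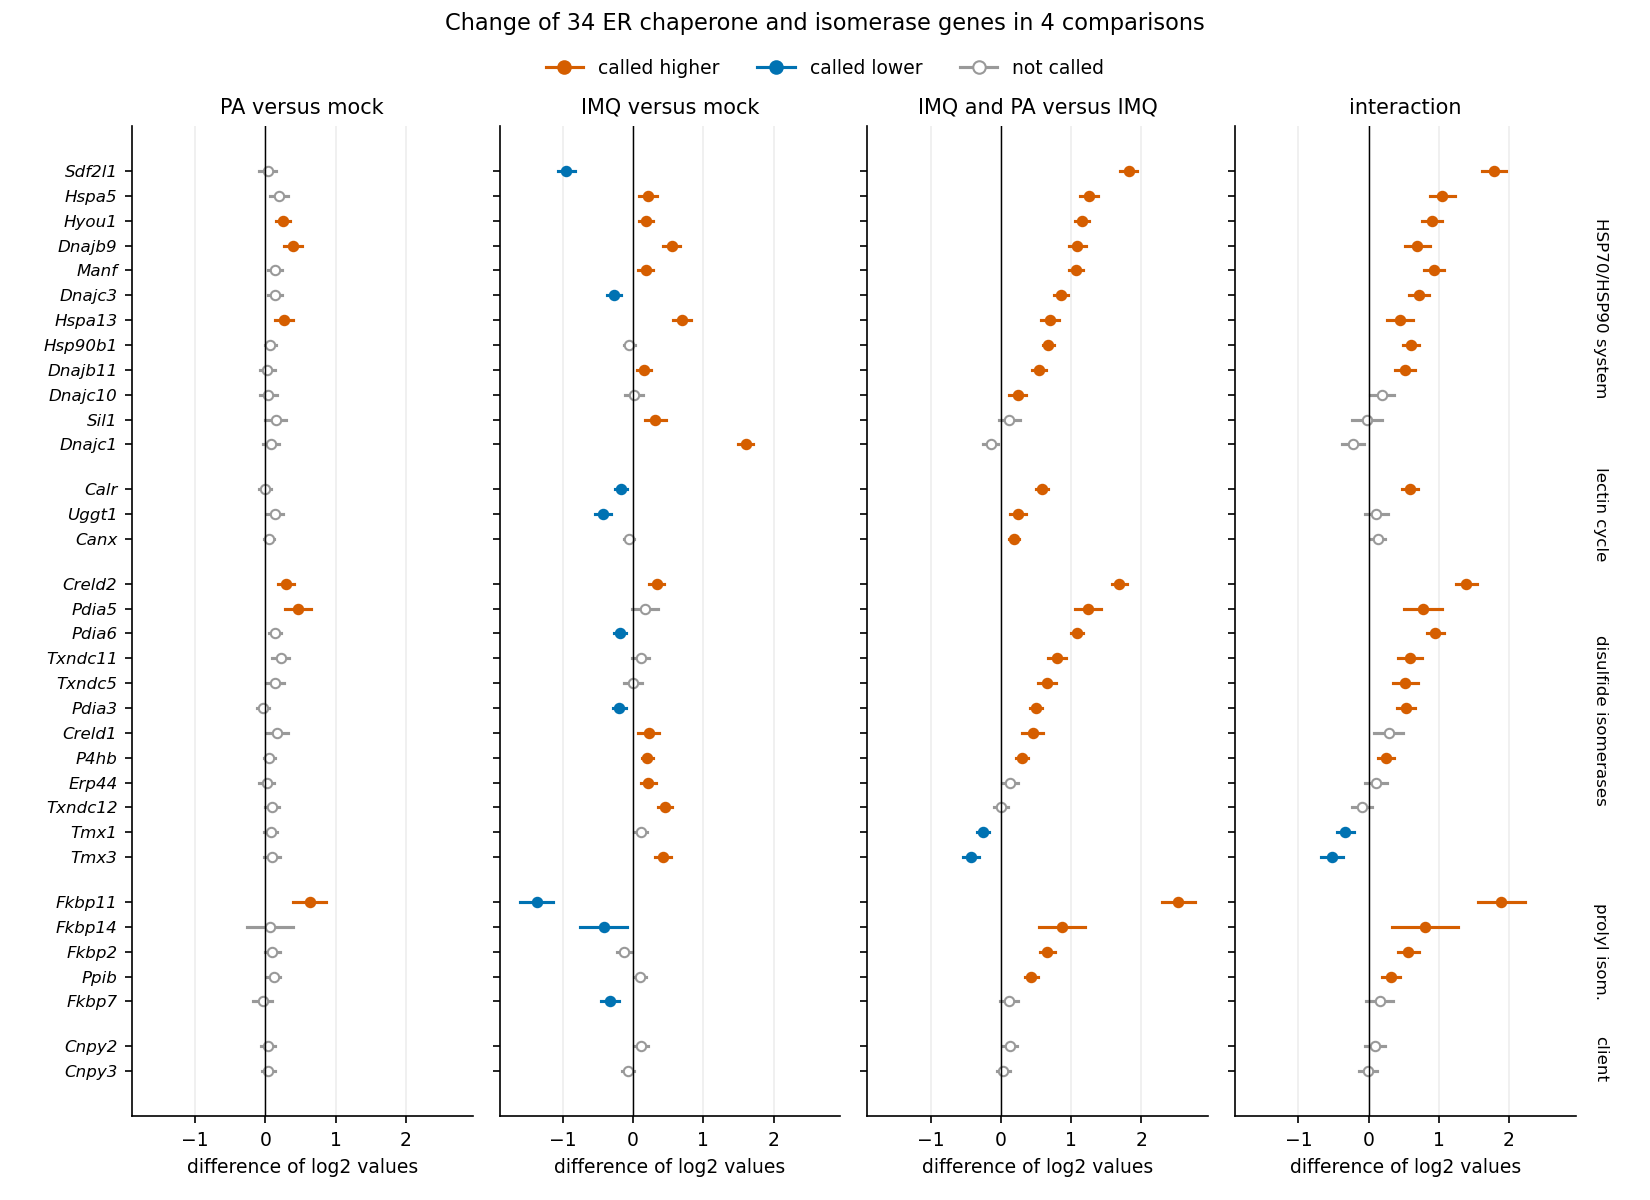
Change of each of the 34 measured genes, in log2 units on the x axis, for PA against mock, IMQ against mock, IMQ and PA against IMQ, and the interaction. Points are fitted differences with their 95% confidence intervals, filled where called, and genes are grouped by role from top to bottom (the last 2 are the client-restricted chaperones). The third panel lies mostly right of 0, with 25 genes called higher and Tmx1 and Tmx3 called lower, while the second is split between 14 higher and 9 lower.

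Some facts of the arrays bear on the groups without IMQ. Il6, an inflammatory cytokine, read 7.57, 7.90, 7.71 and 4.32 on the mock arrays and 4.12, 3.999, 7.43 and 8.22 with PA, against 11.86 to 12.02 with IMQ and 12.25 to 12.27 with both. Mock replicates 1 to 3 and PA replicates 3 and 4 therefore carried more of this transcript than the other arrays without IMQ. Every comparison was also run without those 5 arrays, which leaves 1 mock and 2 PA arrays and assumes that the lone mock array varies like the other groups. Arrays of a group correlated at 0.994 to 0.996 over all genes, and no pair of arrays was identical. Markers of dendritic cells were present, since none of 7 measured was at or below 4.93 in all groups, the 95th percentile of 1405 sensory receptor genes and the limit for a dim gene. With IMQ this list went both ways, with 3 of the 7 higher and 4 lower. The changes were 1.02 for Ccr7, 0.53 for Flt3 and 0.50 for Zbtb46, and -1.71 for Itgax, which encodes CD11c, -1.36 for Ciita, -0.33 for Dpp4 and -0.30 for H2-Ab1, an MHC class II chain. When PA was added to IMQ, 1 was higher (Ccr7, 0.25) and 2 lower (Flt3, -0.34, and Dpp4, -0.29).

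Markers of other cells were measured beside the members. None of 5 macrophage markers was dim in all groups, whereas 5 of 5 T and NK cell, 5 of 7 B and plasma cell, 5 of 6 mast cell and basophil, 3 of 7 neutrophil, 2 of 6 stromal and the only measured erythroid marker were. Between IMQ and IMQ with PA, the log2 of the summed markers ranged over the arrays from 8.31 to 8.35 and from 8.11 to 8.27 for B and plasma cells, from 13.6 to 13.6 and from 13.3 to 13.4 for macrophages, from 8.58 to 8.68 and from 8.65 to 8.79 for neutrophils, and from 8.52 to 8.53 and from 8.14 to 8.32 for stromal cells. For the dendritic cell list this log2 sum ran from 12.86 to 12.90 with IMQ and from 12.96 to 12.99 with both agents. Of the mast cell and basophil list, Prss34 (0.34, dim in all groups) rose with IMQ, and no other marker was called. The macrophage markers went both ways. With IMQ, Adgre1 (1.55) and Fcgr1 (0.84) rose, and Mertk (-2.08), Cd68 (-0.53) and Csf1r (-0.18) fell. When PA was added to IMQ, Mertk rose (0.50), Fcgr1 (-0.89), Csf1r (-0.46) and Adgre1 (-0.40) fell, and Cd68 (0.09) was not called. Of the plasma cell genes, Jchain and Tnfrsf17 were dim in all 4 groups, while group means ran from 7.30 to 7.71 for Sdc1 and from 5.18 to 5.25 for Mzb1. Sdc1 rose with IMQ by 0.27 and changed by -0.16 when PA was added, the only calls of the B and plasma cell list in these comparisons. Of the 7 neutrophil markers, S100a8 (1.52) and Camp (0.89) rose with IMQ, S100a9 changed by -0.71, and Ly6g, Mpo, Elane and Ngp were not called. Of the 6 stromal markers, Dcn (3.10) and Lum (0.52, dim in all groups) rose with IMQ, and Col1a1, Col1a2, Col3a1 and Pdgfra were not called. When PA was added to IMQ, S100a8 changed by 0.26, Camp by -0.60 and Dcn by -0.63, and no other marker of the neutrophil and stromal lists was called. The part of these cells in the members' changes was not tested, and fewer cells of a type cannot be told apart from less RNA per cell in such bulk samples.

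The promoters of several members carry an element known to be bound by ATF6 in ER stress, and they are shown as a description. Members with and without it rose when PA was added to IMQ, and its part in these changes was not tested. The ER stress element (ERSE) is CCAAT, 9 free bases and CCACG. It was searched on both strands of the RefSeq promoter windows of assembly GRCm38.p6, which run from 250 bases before to 50 after the start of a gene. A window was found for 31 of the 37 members, and 7 of them (22.6%) held an exact ERSE, whereas 37 of 27025 genes with a window (0.137%) did. With up to 1 mismatch in the last 5 letters the shares were 11 of 31 members (35.5%) and 1.14% of genes, a search that includes every exact match. The 37 genes with an exact match include the 7 members. Such elements were already known in the promoters of many of these genes, so a higher share among members is a description and no test. The ERSE-II, ATTGG with 1 free base and CCACG, was found in Dnajb11 and in 0.0444% of genes. The UPRE, TGACGTGG, an element bound by XBP1, was found in Txndc5 and Txndc11 and in 0.714% of genes. The UPRE holds CCACG in reverse complement and could overlap either form of ERSE there, but no member's window held more than 1 kind of exact match.

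The 250 bases before the start are shown for Hspa5 (chr2:34771840-34772089, plus strand), whose mRNA encodes BiP, and for Creld2 (chr15:88819396-88819645, plus strand). Creld2 encodes an ER protein counted here with the disulfide isomerases. Hspa5 and Creld2 were the called members with the largest PA changes in the presence of IMQ among those with an exact ERSE. Capitals mark the ERSE, which reads as its reverse complement (CGTGG, 9 bases, ATTGG) in Creld2. Its first base lies 65 bases before the start of Hspa5 and 126 before that of Creld2.
Hspa5: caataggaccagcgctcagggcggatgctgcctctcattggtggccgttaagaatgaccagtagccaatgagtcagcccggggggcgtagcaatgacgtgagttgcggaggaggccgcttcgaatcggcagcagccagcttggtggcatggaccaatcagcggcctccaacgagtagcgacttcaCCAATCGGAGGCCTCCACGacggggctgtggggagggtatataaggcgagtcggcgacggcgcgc
Creld2: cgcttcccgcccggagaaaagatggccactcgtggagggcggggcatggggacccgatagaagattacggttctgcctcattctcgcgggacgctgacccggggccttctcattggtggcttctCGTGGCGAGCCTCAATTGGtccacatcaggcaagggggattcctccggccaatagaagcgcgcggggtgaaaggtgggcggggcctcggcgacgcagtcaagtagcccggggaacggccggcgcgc

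The other exact ERSE matches are shown with 20 bases on each side, all 5′ to 3′ on the strand of the gene and with the match in capitals. They lie at chr10:86705513-86705676, minus strand (Hsp90b1, with 2 matches, the second in reverse complement), chr14:118937807-118937865, plus strand (Dnajc3), chr12:17266471-17266529, plus strand (Pdia6), chr8:84847055-84847113, minus strand (Calr, in reverse complement) and chr11:50325780-50325838, minus strand (Canx). The matches began 65 to 212 bases before the start of the gene over all 7 members.
Hsp90b1: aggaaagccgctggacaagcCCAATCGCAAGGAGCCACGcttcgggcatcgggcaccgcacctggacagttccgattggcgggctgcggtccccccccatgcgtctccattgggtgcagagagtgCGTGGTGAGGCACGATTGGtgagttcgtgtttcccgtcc
Dnajc3: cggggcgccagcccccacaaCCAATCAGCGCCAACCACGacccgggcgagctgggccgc
Pdia6: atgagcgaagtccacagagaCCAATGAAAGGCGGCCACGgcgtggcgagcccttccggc
Calr: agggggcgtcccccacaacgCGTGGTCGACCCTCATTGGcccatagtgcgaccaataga
Canx: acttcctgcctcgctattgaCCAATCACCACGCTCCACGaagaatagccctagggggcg

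The ERSE-II of Dnajb11 lies just after the start of the gene (chr16:22857842-22857872, plus strand) and is shown with 10 bases on each side. The UPRE of Txndc11 (chr16:11134607-11134654, minus strand) and that of Txndc5 (chr13:38528025-38528072, minus strand) are shown with 20 bases on each side, all with the element in capitals.
Dnajb11: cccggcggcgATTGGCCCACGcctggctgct
Txndc11: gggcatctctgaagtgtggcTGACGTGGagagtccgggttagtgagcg
Txndc5: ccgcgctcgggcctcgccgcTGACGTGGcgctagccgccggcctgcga

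All 7 members with an exact ERSE rose when PA was added to IMQ, by 0.19 (Canx) to 1.68 (Creld2), with a median of 0.85. Of 22 measured members with a window but no exact ERSE, 15 rose and 1 fell, with a median of 0.44 and a range of -0.26 to 2.52. The member with the largest change, Fkbp11, and Sdf2l1 are among these 22. With IMQ alone, 2 of the 7 rose and 3 fell. A match is a description of these letters, and its absence says only that they are not in this window. No test was made of the difference between the members with and without a match.

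**Figure D2:**
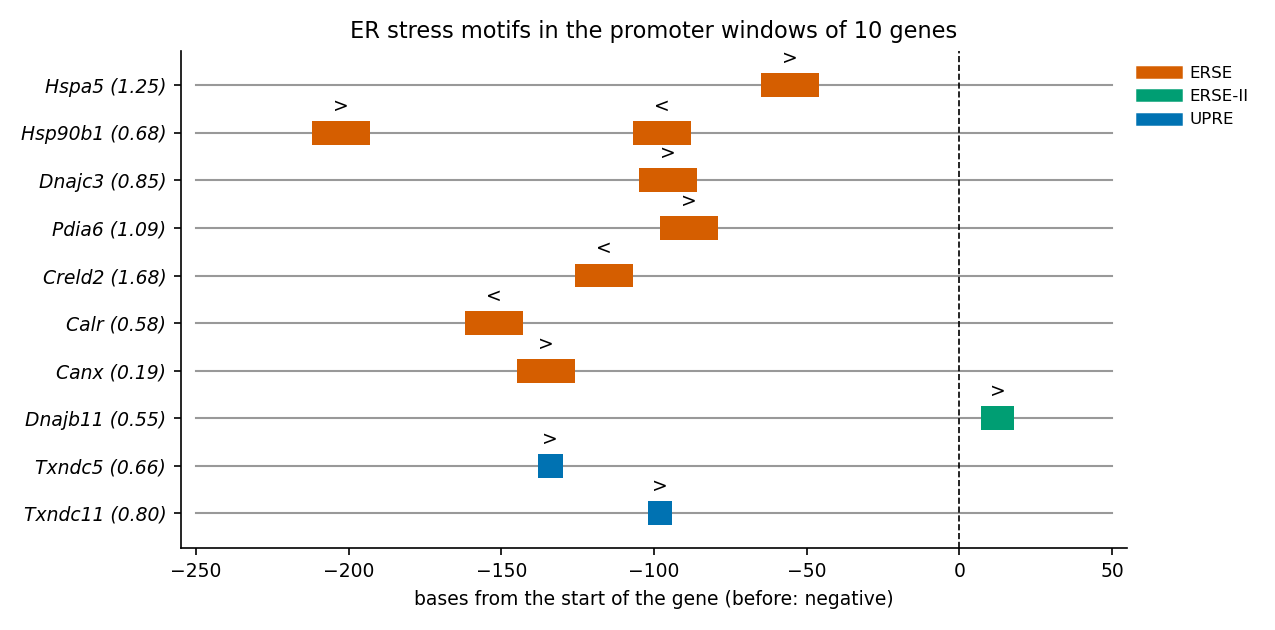
Position of exact ERSE, ERSE-II and UPRE matches in the promoter windows of 10 genes, as bases from the start of the gene on the x axis. Boxes are the matches, arrowheads give their direction relative to the gene, and the number after each name is the log2 change of the gene when PA was added to IMQ. All ERSE matches lie before the start, and the ERSE-II of Dnajb11 lies after it.

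The HSP70 and HSP90 system was higher as a group with both agents. Of its 12 measured members 10 rose when PA was added to IMQ, with a median of 0.78, and all 12 rose with both agents against mock, with a median of 1.05. Hspa5 (BiP), which holds nascent chains and keeps the stress sensors inactive, read 9.70, 9.76, 9.72 and 9.68 on the mock arrays, 9.83, 9.89, 9.90 and 10.03 with PA, 9.96, 9.88, 10.00 and 9.83 with IMQ, and 11.18, 11.09, 11.31 and 11.10 with both. All arrays with both agents lay above all others, and PA and IMQ arrays each lay above every mock array while overlapping one another. PA added to IMQ raised Hspa5 by 1.25 ± 0.06 (adjusted p = 4.59e-10), which is 2.38-fold. IMQ alone raised it by 0.21 ± 0.06 (adjusted p = 0.0132), and PA alone gave 0.20 ± 0.06 (adjusted p = 0.132), which was not called but was with a variance trend (adjusted p = 0.0163). With quantile normalization repeated, the IMQ change of Hspa5 was 0.14 and not called (adjusted p = 0.0748).

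Hsp90b1 (GRP94), which folds Toll-like receptors and integrins, read 11.62, 11.61, 11.70 and 11.62 on the mock arrays, 11.71, 11.70, 11.69 and 11.74 with PA, 11.57, 11.57, 11.59 and 11.60 with IMQ, and 12.27, 12.24, 12.28 and 12.25 with both. Its IMQ arrays lay just below the mock arrays and its arrays with both agents above all others. Neither PA alone (0.07 ± 0.04 (adjusted p = 0.406)) nor IMQ alone (-0.06 ± 0.04 (adjusted p = 0.283)) gave a call, while PA added to IMQ raised it by 0.68 ± 0.04 (adjusted p = 2.22e-09). With quantile normalization repeated, Hsp90b1 was called lower with IMQ alone (-0.11, adjusted p = 0.0217), as it was with a variance trend (-0.06, adjusted p = 0.0477).

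Sdf2l1 works beside the J protein Dnajb11 to keep clients of BiP soluble. It read 9.20, 9.27, 9.30 and 9.34 on the mock arrays, 9.32, 9.32, 9.34 and 9.27 with PA, 8.44, 8.22, 8.39 and 8.24 with IMQ, and 10.10, 10.21, 10.21 and 10.06 with both. The mock and PA arrays overlapped, the IMQ arrays lay below both and the arrays with both agents above all. IMQ lowered Sdf2l1 by -0.95 ± 0.06 (adjusted p = 1.23e-09), and PA added to IMQ raised it by 1.82 ± 0.06 (adjusted p = 6.09e-12), or 3.53-fold, the rank of this change being 42 among all 22180 genes. PA alone gave 0.03 ± 0.06 (adjusted p = 0.84), with an interval of -0.09 to 0.16.

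Hyou1 (GRP170), a nucleotide exchange factor of BiP, read 9.21, 9.24, 9.22 and 9.26 on the mock arrays, 9.43, 9.44, 9.49 and 9.57 with PA, 9.43, 9.46, 9.44 and 9.33 with IMQ, and 10.63, 10.57, 10.56 and 10.50 with both. Its groups with a single agent overlapped each other and both lay above mock. PA alone raised it by 0.25 ± 0.05 (adjusted p = 0.0134), IMQ alone by 0.18 ± 0.05 (adjusted p = 0.00563) and PA added to IMQ by 1.15 ± 0.05 (adjusted p = 8.44e-11). Manf, an ER protein that binds BiP and can be secreted, rose with IMQ (0.18 ± 0.05). It also rose when PA was added to IMQ (1.07 ± 0.05 (adjusted p = 2.28e-10)), and its PA change without IMQ was not called (0.13 ± 0.05 (adjusted p = 0.203)). Sil1, the other exchange factor, rose with IMQ by 0.31 ± 0.07 (adjusted p = 0.00218) but was not called when PA was added (0.12 ± 0.07 (adjusted p = 0.289), interval -0.03 to 0.27).

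The J-domain proteins divided. Dnajb9 (ERdj4), which binds IRE1 and brings misfolded clients to degradation, read 8.40, 8.61, 8.59 and 8.65 on the mock arrays, 8.90, 8.96, 8.94 and 9.03 with PA, 9.02, 9.16, 9.18 and 9.08 with IMQ, and 10.25, 10.15, 10.15 and 10.25 with both. Each of its 3 treated groups lay above mock, and the group with both agents above all others. It rose by 0.40 ± 0.06 (adjusted p = 0.00211) with PA, 0.55 ± 0.06 (adjusted p = 1.41e-06) with IMQ and 1.64 ± 0.06 (adjusted p = 2.26e-12) with both. Dnajc3 (p58IPK), a J protein of the lumen, read 9.89, 9.93, 9.91 and 9.86 on the mock arrays, 10.00, 9.98, 10.02 and 10.14 with PA, 9.62, 9.61, 9.71 and 9.57 with IMQ, and 10.52, 10.40, 10.52 and 10.47 with both. Its IMQ arrays were the lowest and those with both agents the highest, without overlap. It fell with IMQ by -0.27 ± 0.05 (adjusted p = 0.000252) and rose by 0.85 ± 0.05 (adjusted p = 2.65e-09) when PA was added.

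Dnajc1 (ERdj1), a membrane J protein near the ribosome, moved with IMQ. It read 8.22, 8.16, 8.33 and 8.20 on the mock arrays, 8.23, 8.42, 8.27 and 8.30 with PA, 9.79, 9.91, 9.79 and 9.82 with IMQ, and 9.66, 9.69, 9.71 and 9.67 with both. Both groups with IMQ lay above both without it, and the arrays with both agents lay below those with IMQ alone. IMQ raised Dnajc1 by 1.60 ± 0.05 (adjusted p = 6.96e-13), 3.04-fold, the largest rise among the members with IMQ alone, and PA added to IMQ gave -0.15 ± 0.05 (adjusted p = 0.0558), which was not called. This call appeared with a variance trend, with quantile normalization repeated and with dim genes left out (adjusted p = 0.0119, 0.0262 and 0.0237).

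Hspa13, an HSP70-like ATPase of the ER, read 7.28, 7.42, 7.49 and 7.40 on the mock arrays, 7.62, 7.57, 7.70 and 7.74 with PA, 7.98, 8.06, 8.23 and 8.11 with IMQ, and 8.79, 8.85, 8.78 and 8.79 with both. Its 4 groups did not overlap and stood in the order mock, PA, IMQ, both. It rose by 0.26 ± 0.06 (adjusted p = 0.0444) with PA, 0.70 ± 0.06 (adjusted p = 9.41e-08) with IMQ and 1.40 ± 0.06 (adjusted p = 1.63e-11) with both. The PA call was lost with quantile normalization repeated (adjusted p = 0.0715), with array medians set equal (adjusted p = 0.0697) and with most single arrays left out, at adjusted p up to 0.149 without mock replicate 1. Dnajb11 (ERdj3), which feeds clients to BiP, rose by 0.16 ± 0.05 with IMQ and by 0.55 ± 0.05 when PA was added. The IMQ call of Dnajb11 was lost with quantile normalization repeated (0.10, adjusted p = 0.0696) and with fits on only the groups compared (adjusted p = 0.0587). Dnajc10 (ERdj5), a J protein that reduces disulfide bonds, rose by 0.24 ± 0.06 when PA was added and was not called with either agent alone.

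**Figure D3:**
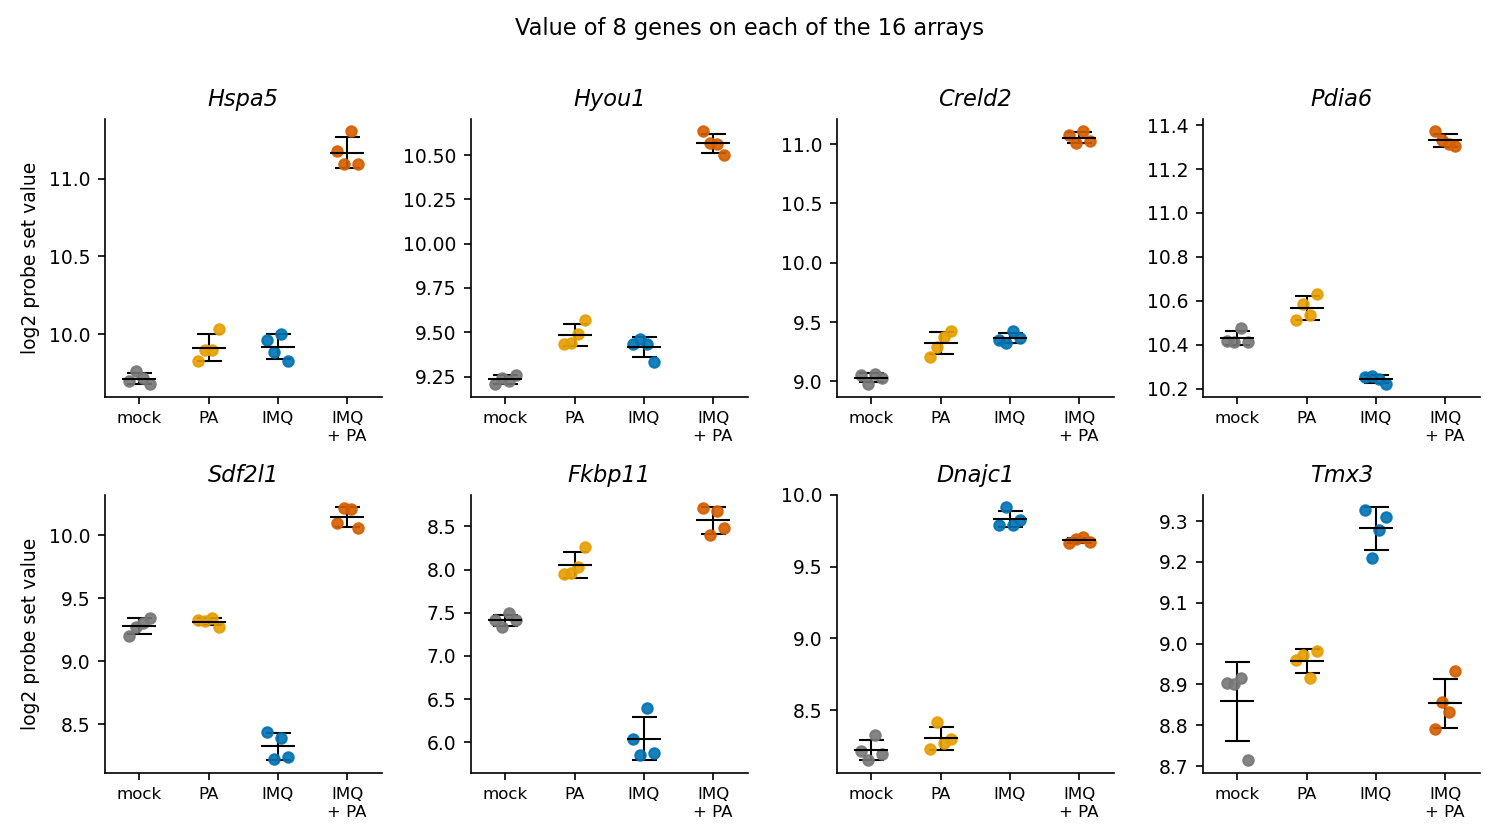
Log2 probe set value of 8 genes on each of the 16 arrays, grouped as mock, PA, IMQ and IMQ with PA. Coloured points are single arrays, black bars the mean and SD of 4 arrays, and each panel has its own y range that does not start at 0. Hspa5, Hyou1, Creld2, Pdia6, Sdf2l1 and Fkbp11 are highest with both agents, Sdf2l1 and Fkbp11 are lowest with IMQ alone, Dnajc1 is high in both groups with IMQ, and Tmx3 is high with IMQ alone.

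In the lectin cycle the 3 measured members rose when PA was added to IMQ, with a median of 0.25. With IMQ against mock, 2 of the 3 fell. Calr (calreticulin), a soluble lectin chaperone that also takes part in MHC class I loading, read 11.80, 11.83, 11.80 and 11.86 on the mock arrays, 11.83, 11.79, 11.80 and 11.85 with PA, 11.64, 11.65, 11.62 and 11.68 with IMQ, and 12.29, 12.20, 12.22 and 12.22 with both. The mock and PA arrays overlapped, the IMQ arrays lay below them and the arrays with both agents above. Calr fell with IMQ by -0.17 ± 0.04 (adjusted p = 0.00186) and rose by 0.58 ± 0.04 (adjusted p = 1.69e-08) when PA was added, whereas PA alone gave -0.00 ± 0.04 (adjusted p = 0.975), with an interval of -0.09 to 0.08. Uggt1, the glucosyltransferase that returns unfolded glycoproteins to the cycle, read 8.53, 8.52, 8.57 and 8.54 on the mock arrays, 8.60, 8.59, 8.70 and 8.81 with PA, 8.14, 8.16, 8.14 and 8.01 with IMQ, and 8.31, 8.42, 8.39 and 8.31 with both. Both groups with IMQ lay below both groups without it. It rose by 0.25 ± 0.05 (adjusted p = 0.00352) when PA was added to IMQ but stayed below mock with both agents, at -0.18 ± 0.05 (adjusted p = 0.0155). The call against mock was lost with array medians set equal (-0.15, adjusted p = 0.0754). Canx (calnexin), the membrane lectin, rose by 0.19 ± 0.03 (adjusted p = 0.000695) when PA was added and was not called with IMQ alone (-0.06 ± 0.03 (adjusted p = 0.231)). Canx was called lower with IMQ alone with quantile normalization repeated (-0.09, adjusted p = 0.0455) and with a variance trend (-0.06, adjusted p = 0.0221). Its rise with both agents against mock (0.13 ± 0.03 (adjusted p = 0.00573)) lost its call with quantile normalization repeated (0.07, adjusted p = 0.111) and without the 5 arrays named above (0.15, adjusted p = 0.123).

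Of the 12 disulfide isomerases and thioredoxin-fold proteins, 8 rose and 2 fell when PA was added to IMQ, with a median of 0.48. Creld2, induced in ER stress in other cells, read 9.05, 8.98, 9.07 and 9.03 on the mock arrays, 9.21, 9.29, 9.38 and 9.42 with PA, 9.35, 9.33, 9.43 and 9.37 with IMQ, and 11.07, 11.01, 11.11 and 11.02 with both. The PA and IMQ arrays overlapped above mock, and the arrays with both agents stood above all. It rose by 0.29 ± 0.05 (adjusted p = 0.0073) with PA, 0.34 ± 0.05 (adjusted p = 5.44e-05) with IMQ, 1.68 ± 0.05 (adjusted p = 3.57e-12) when PA was added to IMQ and 2.02 ± 0.05 (adjusted p = 6.81e-14) with both against mock, 4.06-fold and the largest joint change among the members. Among the PA arrays replicates 3 and 4, which also had more Il6, read highest. Creld1, its membrane-bound relative, rose by 0.22 ± 0.07 with IMQ and 0.46 ± 0.07 when PA was added. The IMQ call of Creld1 was lost without mock replicate 1 (adjusted p = 0.0689), mock replicate 3 (0.0501) or IMQ replicate 1 (0.0717).

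Pdia6 (P5), an isomerase that associates with BiP, read 10.42, 10.41, 10.48 and 10.41 on the mock arrays, 10.51, 10.59, 10.53 and 10.63 with PA, 10.25, 10.26, 10.24 and 10.22 with IMQ, and 11.37, 11.33, 11.32 and 11.31 with both. The 4 groups did not overlap, and IMQ alone was the lowest. It fell with IMQ by -0.19 ± 0.04 (adjusted p = 0.00154) and rose by 1.09 ± 0.04 (adjusted p = 2.79e-11) when PA was added, while PA alone gave 0.14 ± 0.04 (adjusted p = 0.124). With a variance trend and with dim genes left out, the change with PA alone was called (adjusted p = 0.00418 and 0.0472). Pdia5, another isomerase of the family, read 5.79, 5.66, 5.94 and 5.68 on the mock arrays, 6.08, 6.17, 6.32 and 6.35 with PA, 6.08, 5.75, 6.04 and 5.88 with IMQ, and 7.28, 7.04, 7.24 and 7.16 with both. Its IMQ arrays overlapped mock, and the highest IMQ array reached just past the lowest PA array. It rose by 0.46 ± 0.09 (adjusted p = 0.0145) with PA and 1.24 ± 0.09 (adjusted p = 3.86e-08) when PA was added to IMQ, and with IMQ alone gave 0.17 ± 0.09 (adjusted p = 0.159).

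Pdia3 (ERp57), the partner of calreticulin and calnexin and a part of the MHC class I loading complex, read 11.16, 11.15, 11.14 and 11.11 on the mock arrays, 11.10, 11.07, 11.11 and 11.14 with PA, 10.98, 10.92, 10.88 and 10.98 with IMQ, and 11.41, 11.37, 11.48 and 11.49 with both. Its IMQ arrays lay below the others and its arrays with both agents above. It fell with IMQ by -0.20 ± 0.04 (adjusted p = 0.00142) and rose by 0.50 ± 0.04 (adjusted p = 2.97e-07) when PA was added. P4hb, the founding protein disulfide isomerase, rose with IMQ (0.20 ± 0.04) and also when PA was added (0.30 ± 0.04). Txndc11 and Txndc5, whose windows hold the UPRE shown above, rose by 0.80 ± 0.06 and 0.66 ± 0.06 when PA was added and were not called with IMQ alone. PA alone gave 0.22 ± 0.06 (adjusted p = 0.0845) for Txndc11, which was called with dim genes left out (adjusted p = 0.0369) and with a variance trend (adjusted p = 0.0251).

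A few thioredoxin-fold genes went another way. Tmx3, a membrane-bound oxidoreductase, read 8.90, 8.90, 8.92 and 8.71 on the mock arrays, 8.96, 8.97, 8.92 and 8.98 with PA, 9.33, 9.21, 9.28 and 9.31 with IMQ, and 8.79, 8.86, 8.83 and 8.93 with both. Its IMQ arrays lay above all others, and the arrays with both agents overlapped mock. It rose with IMQ by 0.42 ± 0.05 (adjusted p = 6.39e-06), fell by -0.43 ± 0.05 (adjusted p = 1.58e-05) when PA was added, and was not called with both agents against mock. Tmx1, a related membrane oxidoreductase, read 9.41, 9.50, 9.51 and 9.43 on the mock arrays, 9.60, 9.53, 9.51 and 9.51 with PA, 9.58, 9.57, 9.56 and 9.57 with IMQ, and 9.26, 9.31, 9.34 and 9.34 with both. Its arrays with both agents lay below all others. It fell by -0.26 ± 0.04 (adjusted p = 0.000252) when PA was added to IMQ, and its second probe set changed by -0.23. Txndc12 (ERp18) and Erp44, which retrieves escaped ER proteins, rose with IMQ (0.46 ± 0.05 and 0.22 ± 0.05) and were not called when PA was added (0.00 ± 0.05, interval -0.10 to 0.10, and 0.13 ± 0.05, interval 0.02 to 0.24). The Erp44 change was called with a variance trend and with dim genes left out (adjusted p = 0.0479 and 0.0464).

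Among the 5 prolyl isomerases 4 rose when PA was added to IMQ, with a median of 0.66, and 3 fell with IMQ against mock. Fkbp11, abundant in secretory tissues, read 7.41, 7.34, 7.49 and 7.42 on the mock arrays, 7.95, 7.96, 8.03 and 8.26 with PA, 6.04, 5.86, 6.39 and 5.88 with IMQ, and 8.71, 8.40, 8.68 and 8.48 with both. Its 4 groups did not overlap, IMQ alone was the lowest and both agents the highest. IMQ lowered it by -1.37 ± 0.11 (adjusted p = 4.11e-08), PA alone raised it by 0.63 ± 0.11 (adjusted p = 0.00745), and PA added to IMQ raised it by 2.52 ± 0.11 (adjusted p = 1.87e-10). That last change, 5.75-fold, was the largest among the members and ranked 12 of 22180 genes. Among the PA arrays, replicate 4 read highest, and it was one of the arrays with more Il6.

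Fkbp14, which acts on collagens, read 5.03, 4.86, 4.56 and 4.98 on the mock arrays, 4.84, 4.79, 5.21 and 4.86 with PA, 4.74, 4.72, 3.96 and 4.33 with IMQ, and 5.26, 5.44, 5.22 and 5.30 with both. Most of these values without PA and IMQ together lie near or below the level of 4.93, so the sizes of its changes are uncertain. It rose by 0.87 ± 0.15 (adjusted p = 0.000609) when PA was added to IMQ and fell with IMQ by -0.42 ± 0.16 (adjusted p = 0.0457), although its mock and IMQ arrays overlapped. That IMQ call was lost when most single arrays were left out (-0.26, adjusted p = 0.149, without IMQ replicate 3), and the call with both agents against mock was lost for instance without mock replicate 3 (0.35, adjusted p = 0.111). Fkbp7, a lumenal relative, read 5.19, 5.20, 5.26 and 5.15 on the mock arrays, 5.10, 5.24, 5.07 and 5.23 with PA, 4.79, 4.90, 4.95 and 4.83 with IMQ, and 4.84, 5.01, 4.97 and 5.12 with both. Its mock arrays lay above its IMQ arrays, the latter near the dim level. It fell with IMQ by -0.33 ± 0.06 (adjusted p = 0.000487) and was not called when PA was added (0.12 ± 0.06 (adjusted p = 0.224)). Ppib (cyclophilin B) and Fkbp2 rose by 0.43 ± 0.04 and 0.66 ± 0.05 when PA was added and were not called with either agent alone.

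Neither chaperone with a narrow range of clients was called when PA was added to IMQ. Cnpy3, which escorts Toll-like receptors out of the ER, read 8.34, 8.40, 8.39 and 8.40 on the mock arrays, 8.48, 8.37, 8.40 and 8.44 with PA, 8.36, 8.28, 8.35 and 8.26 with IMQ, and 8.38, 8.37, 8.32 and 8.31 with both. The mock arrays overlapped each other group, while the PA arrays lay just above the IMQ arrays. Its change was 0.04 ± 0.04 (adjusted p = 0.609) with an interval of -0.05 to 0.13, 0.04 ± 0.04 (adjusted p = 0.718) with PA alone and -0.07 ± 0.04 (adjusted p = 0.228) with IMQ alone, and none of its 6 comparisons was called. Cnpy2 gave 0.13 ± 0.05 (adjusted p = 0.0643) when PA was added to IMQ, with an interval of 0.03 to 0.23, and rose with both agents against mock by 0.24 ± 0.05 (adjusted p = 0.000609). The Cnpy2 change was called with a variance trend and with dim genes left out (adjusted p = 0.00871 and 0.0262).

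Among the members the interaction was largest for Fkbp11, Sdf2l1, Creld2 and Hspa5. For Fkbp11 the separate changes summed to -0.74, while both agents together gave 1.15, an interaction of 1.89 ± 0.16 (adjusted p = 6.3e-07). For Sdf2l1 the sum was -0.92 against 0.86 with both (1.78 ± 0.08 (adjusted p = 1.38e-09)), and for Creld2 0.63 against 2.02 (1.39 ± 0.07 (adjusted p = 4.63e-09)). For Hspa5 the sum was 0.40 against 1.46 (1.05 ± 0.08 (adjusted p = 4.93e-07)). In these 4 genes the joint change exceeded the sum by 1.05 to 1.89. The next members were Pdia6 (0.95 ± 0.06), Manf (0.93 ± 0.07) and Hyou1 (0.90 ± 0.07), and for Hsp90b1 and Calr it was 0.61 ± 0.05 and 0.59 ± 0.05. Tmx3 and Tmx1 had a called interaction below 0, at -0.53 ± 0.07 (adjusted p = 0.000132) and -0.33 ± 0.06 (adjusted p = 0.00106). The call of Tmx1 was lost with its probe sets averaged (-0.24, adjusted p = 0.0757). For Cnpy3 it was -0.00 ± 0.06 (adjusted p = 0.983), with an interval of -0.13 to 0.12. By role, 9 of the 12 members of the HSP70 and HSP90 system, 7 of the 12 disulfide isomerases, 1 of the 3 lectin cycle genes, 4 of the 5 prolyl isomerases and neither client-restricted chaperone had an interaction called above 0.

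**Figure D4:**
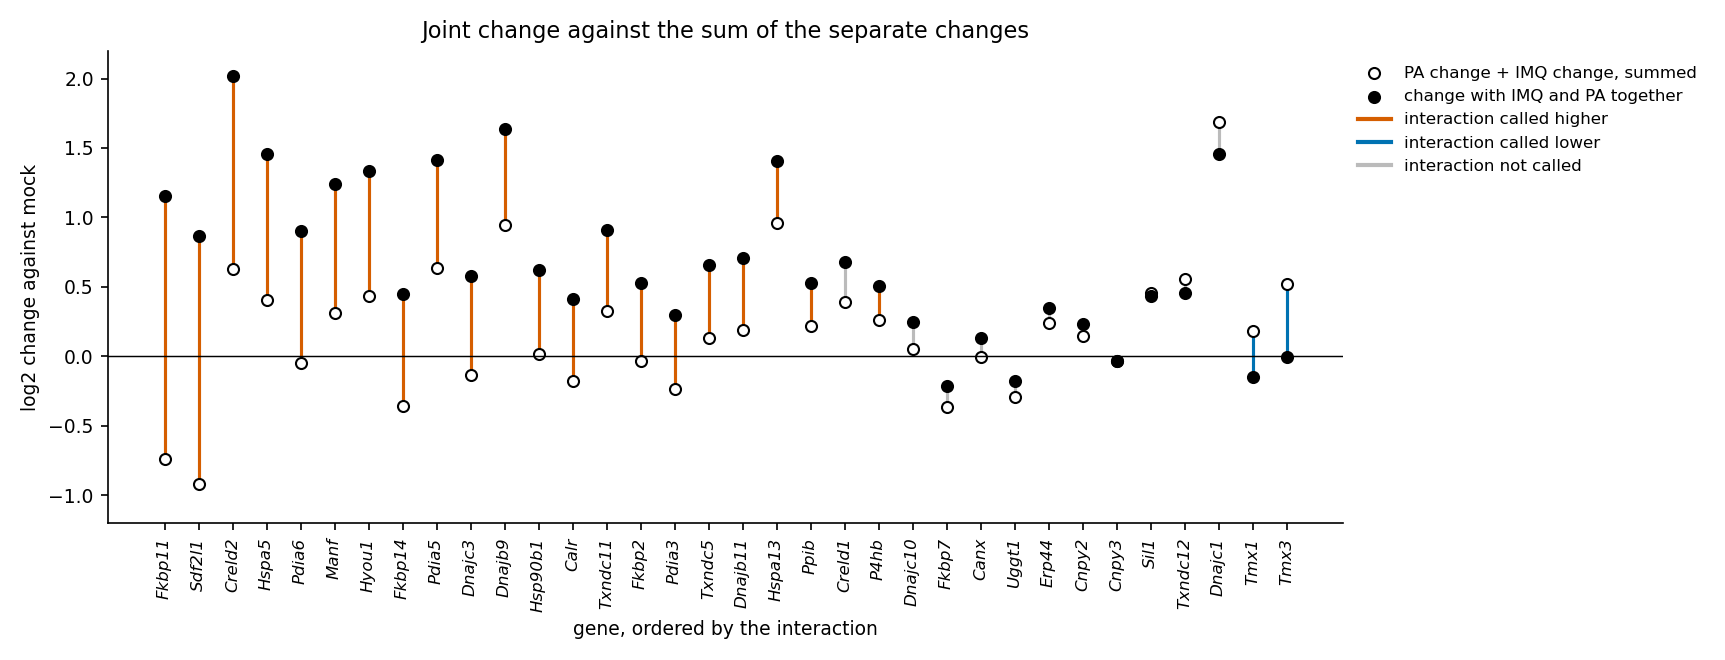
Log2 change against mock of each of the 34 genes with IMQ and PA together (filled points) and the sum of its separate PA and IMQ changes (open points), ordered by the interaction, which is the length of the line between them. The filled point lies above the open one for the genes on the left, from Fkbp11 with 1.15 against -0.74, and below it for Tmx1 and Tmx3 at the right end.

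Of the 9 members that IMQ lowered, 7 rose above mock when both agents were present, and these were Fkbp11, Sdf2l1, Fkbp14, Dnajc3, Pdia3, Pdia6 and Calr. Uggt1 and Fkbp7 stayed below mock with both (-0.18 ± 0.05 and -0.21 ± 0.06). Dnajb9, Hspa13, Creld2 and Hyou1 were the 4 members that rose with PA, with IMQ and with both against mock. Dnajc1, Sil1, Txndc12 and Erp44 were the 4 that rose with IMQ and were not called when PA was added to it.

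IMQ added to PA is the other way to read the joint treatment. Creld2 (1.73 ± 0.05), Dnajc1 (1.38 ± 0.05), Hspa5 (1.26 ± 0.06) and Dnajb9 (1.24 ± 0.06) rose most, and all 12 members of the HSP70 and HSP90 system rose. Uggt1, Tmx1 and Fkbp7 fell, by -0.32 ± 0.05, -0.23 ± 0.04 and -0.17 ± 0.06, and the call of Fkbp7 (adjusted p = 0.0406) was lost under several settings, among them array medians set equal (adjusted p = 0.0753). Fkbp11 rose by 0.52 ± 0.11 (adjusted p = 0.00126), less than the 2.52 it rose when PA was added to IMQ. Hsp90b1 rose by 0.55 ± 0.04 and Calr by 0.41 ± 0.04, while Cnpy3 gave -0.07 ± 0.04 (adjusted p = 0.208).

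The calls for PA alone depended on which arrays were used, and for Hspa13 this held for arrays with IMQ too. Without the 5 arrays named above, all 6 members raised by PA alone lost their call by limma, and far fewer of all genes were called. The changes of the 6 members were 0.53 for Fkbp11, 0.44 for Pdia5, 0.29 for Dnajb9, 0.22 for Creld2, 0.19 for Hspa13 and 0.18 for Hyou1. Without PA replicate 4 alone, 3 were called, and Hspa13, Hyou1 and Pdia5 were lost (adjusted p = 0.143, 0.0529 and 0.0576). In the same setting without 5 arrays, the median change of the members was 0.57 when PA was added to IMQ and 0.52 for the interaction. Over all genes these medians were -0.02 and -0.01. The 12 members no longer called for IMQ against mock were Hspa5, P4hb, Creld1, Manf, Hyou1, Sil1, Dnajc3, Pdia3, Pdia6, Calr, Fkbp7 and Fkbp14, each in the same direction and with an adjusted p from 0.0549 (Calr) to 0.226 (Sil1). With both agents against mock, Uggt1, Fkbp7 and Tmx1 changed by -0.18, -0.17 and -0.12 in that setting and lost their calls as lower. Sil1, Fkbp14, Cnpy2 and Canx, at 0.35, 0.32, 0.21 and 0.15, lost their calls as higher. Fkbp14, P4hb and Ppib lost the call of their interaction. None of the 5 arrays belongs to the groups compared when PA was added to IMQ. In each comparison with mock, fewer of all genes were called in that setting too, so the lost calls were not limited to members. The median change of the members was 0.08 there for IMQ against mock, and 0.11 with all arrays. With both agents against mock it was 0.57 there, and 0.56 with all arrays.

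Other genes of the pathway were counted from listed groups. Of 12 measured regulators of the unfolded protein response, 5 rose and 4 fell when PA was added to IMQ, the most changed being Creb3l2, a membrane-bound transcription factor (1.12), the kinase PERK gene Eif2ak3 (0.59) and Ppp1r15a, which reverses its phosphorylation of eIF2 (0.58). With IMQ alone 7 rose and 1 fell, led by the stress transcription factors Atf4 (1.32) and Ddit3 (1.18) and by Ppp1r15b (1.02). PA alone raised 1, Atf4 (0.31). Of 13 measured genes of ER-associated degradation, which removes misfolded proteins, 9 rose when PA was added to IMQ, led by Derl3 (3.05), Edem2 (0.82) and the ubiquitin ligase Syvn1 (0.68). With IMQ alone 8 rose and 3 fell, and with PA alone 2 rose, Derl3 (0.73) and Derl1 (0.21).

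Of 8 measured genes of ER oxidation, 2 rose and 2 fell when PA was added to IMQ. The oxidases of disulfide isomerases went opposite ways, with Ero1b at 0.76 and Ero1a at -0.38, and Selenof, a selenoprotein of the ER, at 0.34. With IMQ alone 2 rose and 3 fell, with Qsox1 at 1.84, Ero1a at 1.19 and Ero1b at -0.61, and no call was made for PA alone. Of 13 measured chaperones of the cytosol and mitochondria, 7 rose when PA was added to IMQ, with Hspa1b at 1.70, Hspa1a at 1.54 and Hsph1 at 1.33. Hspa1a and Hspa1b are near-identical copies whose probes may read both. Against mock, PA alone raised 1 of these 13 (Hspa9, 0.22) and IMQ alone raised 6 and lowered 2.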

How the data were processed

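RNA from 16 samples was measured on Affymetrix mouse arrays, 4 for each of mock, PA, IMQ, and IMQ with PA. The deposited values are log2 intensities of 41345 probe sets, and RMA and affy are the tools listed in the submitters' processing notes. They ran from 0.63 to 13.5 with none missing. Of the probe sets, 23521 carry a single gene symbol and 1814 several. The latter were left out, and the probe set with the highest mean over the arrays was kept for each of 22180 genes (1082 genes had several). No further normalization or filter was applied.

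A group-means model on all 16 arrays was fitted with limma 3.58.1 in R 4.3.3 (lmFit and eBayes, two-sided, 12 residual degrees of freedom), with Benjamini-Hochberg adjustment over 22180 genes and 95% confidence intervals. The 6 comparisons are described with the results. The fitting was tested on simulated data. The number of arrays limits the precision. Dim genes lie below 4.93, the percentile 95 of 1405 olfactory, vomeronasal and trace amine receptor genes. RefSeq promoter windows were searched with python 3.11.15.

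The members and lists were chosen with earlier results of these data known. By rule, array values are given for called members with the largest changes (up to 6 when PA was added to IMQ, up to 4 elsewhere), for members called against the majority, and for Hspa5, Hsp90b1, Calr and Cnpy3 always. Pathway lists name up to 3 called genes in a comparison. Alternatives were repeated quantile normalization, array medians set equal, a variance trend with robust moderation, fits on only the groups compared, dim genes left out, probe sets averaged, the replicate number as a block, leaving out each array, and leaving out 5 arrays without IMQ that had high Il6.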

Additional observations from a re-analysis of the deposited data

Results flagged for a closer look

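PA changed 23 of the 34 members differently with IMQ than without it, by limma's test of the interaction. The difference in log2 change was 1.89 for Fkbp11, 1.78 for Sdf2l1, 1.39 for Creld2, 1.05 for Hspa5, 0.95 for Pdia6, 0.93 for Manf and 0.90 for Hyou1. It was 0.80 for Fkbp14, 0.78 for Pdia5, 0.71 for Dnajc3, 0.69 for Dnajb9, 0.61 for Hsp90b1, 0.59 for Calr and 0.58 for Txndc11. It was 0.56 for Fkbp2, 0.53 for Pdia3, 0.52 for Txndc5, 0.52 for Dnajb11, 0.45 for Hspa13, 0.31 for Ppib and 0.25 for P4hb. It was below 0 for Tmx3 (-0.53) and Tmx1 (-0.33). Adjusted p-values ran from 1.38e-09 for Sdf2l1 to 0.0228 for Fkbp14.

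In 12 of 136 gene and group combinations a single array stood apart from the other 3 by Dixon's criterion, which chance meets in about 1 in 20 groups. Among the mock arrays these were Hsp90b1 in replicate 3 at 11.70 (others 11.61 to 11.62), Pdia6 in replicate 3 at 10.48 (10.41 to 10.42), Tmx3 in replicate 4 at 8.71 (8.90 to 8.92) and Cnpy3 in replicate 1 at 8.34 (8.39 to 8.40). With PA they were P4hb in replicate 3 at 10.996 (11.06 to 11.07) and Fkbp14 in replicate 3 at 5.21 (4.79 to 4.86). With IMQ they were Manf in replicate 2 at 6.08 (6.16 to 6.17), Ppib in replicate 2 at 10.81 (10.73 to 10.74) and Uggt1 in replicate 4 at 8.01 (8.14 to 8.16). With both agents they were Hspa13 in replicate 2 at 8.85 (8.78 to 8.79), Dnajc10 in replicate 4 at 9.10 (9.29 to 9.32) and P4hb in replicate 2 at 11.45 (11.51 to 11.52).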

How the results depend on the processing

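None of the 141 called member results changed direction under any of the 24 alternatives, 31 lost their call under at least 1, and 15 of these did so in a setting other than the one without 5 arrays. Of the 27 uncalled results followed through the alternatives, 13 gained a call somewhere. Among these were the interactions of Dnajc1 (-0.23), Canx (0.14) and Creld1 (0.28). Canx (0.08) and Fkbp14 (0.38) were others, when IMQ was added to PA. All 5 were called with a variance trend and with dim genes left out. For PA against mock the members called higher numbered 6, with 11 under a variance trend with robust moderation, 2 with only the groups compared, 0 without the 5 arrays, and 3 to 7 with 1 array left out. Over all genes 233 were higher there, with 548 under the variance trend, 108 with only the groups compared, 408 with dim genes left out and 12 without the 5 arrays, where 3 in place of 98 were lower. Leaving out single arrays gave 13 to 14 higher and 8 to 10 lower for IMQ against mock, 25 to 26 and 2 to 3 when PA was added to IMQ, 27 to 28 and 2 to 3 when IMQ was added to PA, 28 to 29 and 2 to 3 with both against mock, and 21 to 22 and 2 to 3 for the interaction. Without the 5 arrays fewer members were called in each comparison with mock. For the interaction fewer members and fewer of all genes were called there. The median change of the members in that setting was 0.08 for IMQ against mock, 0.57 with both against mock and 0.52 for the interaction. Fewer of all genes were also called without the 5 arrays in each comparison with mock. The count lower with both against mock was 1 with array medians set equal, and that of the interaction was 1 with probe sets averaged.

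The uncalled values that changed sign were small. With quantile normalization repeated, Sdf2l1 gave -0.0172 for PA against mock, Calr 0.0069 and Cnpy3 -0.0118, Txndc12 gave -0.0206 when PA was added to IMQ, and Cnpy3 gave 0.0145 for the interaction. With array medians set equal, Calr gave 0.0143 for PA against mock and Cnpy3 0.0051 for the interaction. Without the 5 arrays, Sdf2l1 gave -0.02 for PA against mock and Cnpy3 0.0112 for the interaction. With 1 array left out, Calr ran from -0.0165 to 0.008, Txndc12 from -0.0288 to 0.0252 and the interaction of Cnpy3 from -0.0211 to 0.0161. The causes were not tested. Samples with the same number correlated at -0.12 to 0.17 over 24 pairs, 4 of them over 0.1, and 8 pairs were the best for their sample. The replicate 3 arrays matched best between all groups, at 0.04 to 0.17, and those of replicates 1 and 4 between none. A part shared by the replicate 3 arrays is therefore possible. The numbers were not taken as pairs in the main fit, and the replicate block is an alternative. With the replicate block, members called numbered 6 higher for PA against mock, 14 higher and 8 lower for IMQ against mock (the call of Fkbp14 was lost, adjusted p = 0.0549), and in the other comparisons were as without the block. Fits on only the groups compared give no interaction.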

Other observations

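The other genes of ER quality control were also read for the joint treatment. Of 13 measured genes of ER-associated degradation, 12 rose with both agents against mock, Derl3 by 3.84, and the interaction was called above 0 for 7 and below 0 for 1, with Derl3 at 2.31, Edem2 at 0.76 and Derl1 at -0.24. Of 12 measured regulators of the unfolded protein response, the interaction was above 0 for 5, with Creb3l2 at 0.91, and below 0 for 4. Of 8 measured genes of ER oxidation it was above 0 for 2, with Ero1b at 0.67, and below 0 for 2, with Ero1a at -0.43. Of 13 measured chaperones of the cytosol and mitochondria it was above 0 for 3, Hspa1b at 1.74, Hspa1a at 1.44 and Hsph1 at 1.19, and below 0 for 1. Hspa1a and Hspa1b are near-identical copies, so their separate values are uncertain.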
